A study of Mus musculus with 4 samples.

Results

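The 10 genes described here are regulators and early markers of adipocyte differentiation other than the C/EBP factors. They were taken as every probe set whose platform gene symbol was Pparg, Ppard, Klf4, Klf5, Ebf1, Ebf2, Zfp423, Medag, Lpl or Fabp4. This gave 25 probe sets for 10 of 18193 named genes. The cells were immortalised mouse embryonic fibroblasts (MEFs) whose PA1 gene was flanked by loxP sites. The PA1 -/- group (2 arrays) had been infected with a Cre retrovirus (Cre is an enzyme that cuts out DNA lying between 2 loxP sites) and the PA1 +/+ group (2 arrays) the empty retroviral vector. Both groups therefore shared the conditional allele, immortalisation, retroviral infection and selection with 2.0 µg/ml puromycin for 3 days, repeated once, in DMEM with serum. The labels name no adipogenic induction, sampling time after infection, animal age or number of independent cultures. The study sought genes regulated through PA1, a protein of the KMT2C and KMT2D histone H3 lysine 4 methyltransferase complexes, read here as the gene Pagr1a.

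Adipocyte differentiation runs as a cascade of transcription factors. KLF4 and the early C/EBP factors act soon after induction, KLF5 and the EBF factors act with them on Pparg, and PPAR gamma, which pairs with a retinoid X receptor, drives the lipid genes of the mature fat cell. ZFP423 marks and commits preadipocytes, MEDAG promotes differentiation when overexpressed, lipoprotein lipase (Lpl) appears early, and the fatty acid binding protein FABP4 is a classical PPAR gamma target. Fibroblasts from mouse embryos are a common starting material for such differentiation in culture.

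The upstream sequences of Klf4 and Medag are shown because of their signals by the brightest probe set. These 2 of the 10 genes had both PA1 -/- arrays below both PA1 +/+ arrays, against 12.7% of all genes. A window of Pparg is shown as well because it holds matches to a C/EBP motif, and Cebpb and Cebpd were lower, as given below. Any link between the motif and those genes was not tested. The RefSeq table (build GRCm38.p6) had entries for 6 of the 10 genes, with 11 annotated starts, and Klf5, Ebf2, Lpl and Fabp4 had no entry. Each line gives the 250 bases before an annotated start, 5′ to 3′ on the strand of the gene. Capitals mark matches, on either strand, to any of 6 motifs: GGGCGG (GC box), CACCC, TTGCNNAA (C/EBP), AGGTCA (nuclear receptor core), TATAAA and the EBF palindrome. The Klf4 window lies at chr4:55532476-55532725 on the minus strand, that of Medag at chr5:149411499-149411748 on the plus strand, and that of Pparg, the most downstream of its 3 windows, at chr6:115421816-115422065 on the plus strand.
Klf4: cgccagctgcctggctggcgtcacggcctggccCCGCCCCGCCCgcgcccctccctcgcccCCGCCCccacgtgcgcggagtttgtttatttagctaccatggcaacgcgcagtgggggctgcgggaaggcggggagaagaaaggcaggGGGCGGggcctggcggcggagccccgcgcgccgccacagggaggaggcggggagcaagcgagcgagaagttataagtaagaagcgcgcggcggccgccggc
Medag: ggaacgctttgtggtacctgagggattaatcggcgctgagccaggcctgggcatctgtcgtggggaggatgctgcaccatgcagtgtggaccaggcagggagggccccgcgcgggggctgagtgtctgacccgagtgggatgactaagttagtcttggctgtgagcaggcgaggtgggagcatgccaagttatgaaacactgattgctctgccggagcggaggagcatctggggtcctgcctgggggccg
Pparg: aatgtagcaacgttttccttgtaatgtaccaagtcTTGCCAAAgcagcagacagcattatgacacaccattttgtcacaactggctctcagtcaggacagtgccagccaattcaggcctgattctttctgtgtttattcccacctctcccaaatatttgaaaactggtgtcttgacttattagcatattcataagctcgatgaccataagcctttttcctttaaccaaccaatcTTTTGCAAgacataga
The Klf4 window held 4 GC boxes, 2 of which overlap, and no other motif of the 6. A GC box occurred in 32.7% of 32851 windows of the same length. The Medag window held none of the 6 motifs, nor did its other window. The Pparg window, chosen for its motif, held 2 matches to TTGCNNAA, and the other 2 windows of Pparg held none. A window of Zfp423 held a match as well. The share of all windows with this motif was 9.56%, and nothing is read from it for a window chosen this way. GC content was 74% in the Klf4 window, 62.8% in that of Medag and 40.8% in that of Pparg, against a median of 52.4%. A match is only a run of letters, and binding was not measured here.

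MAS5 signals of 45037 probe sets had array medians from 63.2 to 66.4, and precision is limited by having only 4 arrays. Pagr1a read 1340 and 1389 in the PA1 +/+ arrays numbered 1 and 2, and 108 and 113 in the PA1 -/- arrays, so it was low in both arrays labelled PA1 -/-. The labels do not say which exons Cre removes. All 10 fibroblast markers on the list lay above the boundary of tested probe sets, with summed signals of 82570 and 90190 in PA1 +/+ and of 76510 and 71730 in PA1 -/- arrays. Of 5 measured mature adipocyte markers 0 did, and the highest of their signals was 77.5, so fibroblast markers were present and fat cell markers dim. Their sums were 128 and 128 in PA1 +/+ and 166 and 174 in PA1 -/- arrays. Retn alone of these read higher at both numbers, at 19.5 and 35.8 in PA1 +/+ and 72.0 and 77.5 in PA1 -/- arrays. Adipoq, Cidec and Slc2a4 went opposite ways at the numbers, and Lep was lower at both. Summed signals of 7 macrophage markers were 825 and 1708 in PA1 +/+ and 861 and 898 in PA1 -/- arrays. Of these markers Cd14, Cd68 and Csf1r lay above the boundary, while Ptprc read 16.8 or less. Cd14 made up much of the sums, at 425 and 1416 in PA1 +/+ and 418 and 540 in PA1 -/- arrays. Summed signals of 5 endothelial markers ran from 134 to 153. For 5 epithelial markers the sums were 665 and 238 in PA1 +/+ and 454 and 298 in PA1 -/- arrays, and for 5 skeletal muscle markers 242 and 854, and 299 and 869. In bulk RNA, fewer cells of a type and less RNA per cell cannot be told apart.

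Arrays with the same number resembled each other more than arrays of the same genotype. Log2 signals of tested probe sets correlated at 0.971 and 0.977 within numbers 1 and 2, and at 0.918 and 0.920 within PA1 +/+ and PA1 -/-. What the number stands for is not stated, so each gene is given on all 4 arrays, with the genotype difference within each number. Differences are PA1 -/- minus PA1 +/+ on the scale log2(signal + 9.96). Fold changes on that scale understate the change of dim genes. A probe set was tested when its mean log2 signal lay in the upper 50%, with the boundary at a signal near 62.8. Of the 10 genes, 6 passed this filter with at least 1 probe set (Ppard, Klf4, Klf5, Ebf1, Medag and Fabp4), and Pparg, Ebf2, Zfp423 and Lpl did not.

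Across the 10 genes, Medag and Klf4 were lower in PA1 -/- cells at both numbers, Klf5 was lower mainly at number 1, Fabp4 was lower at number 1 and slightly higher at number 2, and Ppard differed little. The 10 genes were chosen with earlier results of these data known, so counts set against all genes only describe them. By the brightest probe set of each gene, 6 of the 10 were lower at both numbers, against 27.4% of all 18193 genes. The 6 include Ebf1, nearly level at -0.08 and -0.03. Lpl was the 1 gene of 10 that was higher at both, against 31.1%, and Ebf2, Zfp423 and Fabp4 went opposite ways, against 41.5%. The median difference of the 10 was -0.46, with -0.30 at number 1 and -0.29 at number 2, while the median over all genes was 0.02. The median of the 10 was 0.024 without the PA1 +/+ array numbered 1 and 0.070 without the PA1 -/- array numbered 2. Leaving out an array makes the numbers unequal between the genotypes. Such values, here and for each gene below, mix the difference between numbers with that between genotypes. With genotype as the only term, limma called 0 of 11 tested probe sets of these genes and 0 of all 22519 (0% called) at an adjusted p under 0.05. Pagr1a itself was not called by this fit (log2 difference -3.51 by its brightest probe set, limma adjusted p = 0.876). A lack of calls in this fit, here and below, therefore does not show a lack of difference. At an unadjusted p under 0.05 limma had 1 of the 6 tested genes, Medag, against 440 of 22519 probe sets (1.95%). With the replicate number as a further term Medag and Klf4 passed the threshold, as given with the dependence on the processing. The smallest p an exact permutation test can reach with 2 arrays a group is 0.333. The labels do not say whether the 2 arrays of a group came from separate cultures, so the p-values cover the spread among these arrays alone, and this may be technical.

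**Figure D1:**
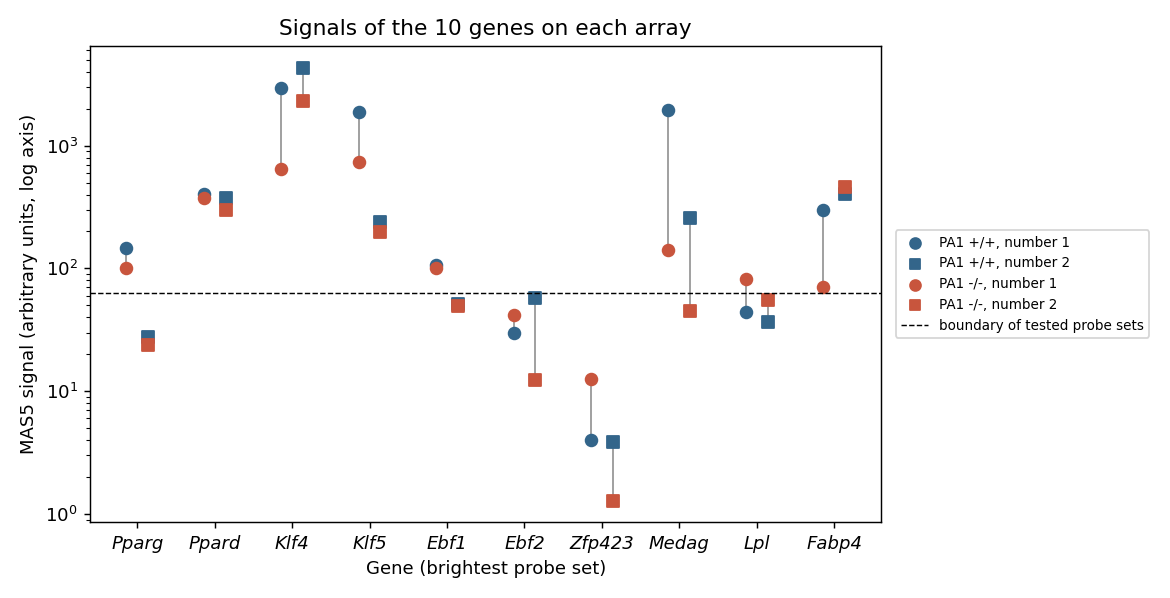
MAS5 signal (log axis, arbitrary units) of the brightest probe set of each of the 10 genes, with a point for each array, blue for PA1 +/+, red for PA1 -/-, circles for number 1 and squares for number 2, and lines joining arrays of the same number. Medag ran from 1947 to 140 at number 1 and from 256 to 45.3 at number 2, whereas Ppard stayed between 299 and 401 on all 4 arrays.

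Medag, whose product promotes adipocyte differentiation, had the largest difference of the 10 genes. Its brightest probe set (1452244_at) read 1947 and 256 in the PA1 +/+ arrays numbered 1 and 2, and 140 and 45.3 in the PA1 -/- arrays. Both PA1 -/- arrays lay below both PA1 +/+ arrays, although number 2 was far dimmer than number 1 in either genotype. The PA1 -/- arrays were 13.0-fold lower at number 1 and 4.82-fold lower at number 2. Group means were 1101 ± 1195 and 92.9 ± 67.3 (SD, n = 2 each). With genotype as the only term the log2 difference was -2.99 (SE 1.07, 95% interval -5.79 to -0.18, limma adjusted p = 1). That SE includes the difference between numbers. With the number as a further term both probe sets of Medag passed the threshold, as given with the dependence on the processing. Within a genotype the arrays differed widely too, with number 2 minus number 1 at -2.88 in PA1 +/+ and -1.44 in PA1 -/- cells. The other probe set (1426937_at) read 1193 and 77.1 against 64.5 and 23.0, with differences of -4.01 at number 1 and -1.40 at number 2. Medag was thus the 1 gene of the 10 at least 2-fold lower at both numbers by its brightest probe set, against 0.945% of all genes. Without the PA1 +/+ array numbered 1 its difference was -1.55, and without the PA1 +/+ array numbered 2 it was -4.42.

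Of 10708 other tested genes, Ackr3 and Palmd had the values most like those of Medag across the 4 arrays. Ackr3, an atypical chemokine receptor gene, read 2609 and 272 in PA1 +/+ and 252 and 41.1 in PA1 -/- arrays. Palmd, which encodes palmdelphin, read 464 and 49.98 against 44.1 and 13.9. Their root mean square distances from Medag, on log2 values centred on each gene's mean over the 4 arrays, were 0.35 and 0.39, with a median of 1.90 over those genes. With 4 arrays this is a description of likeness only.

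Klf4, which encodes a transcription factor active early after adipogenic induction, was bright and lower in PA1 -/- cells at both numbers. Probe set 1417394_at read 2968 and 4328 in the PA1 +/+ arrays numbered 1 and 2, and 648 and 2298 in the PA1 -/- arrays. The genotypes did not overlap, but the PA1 -/- array numbered 2 lay closer to the PA1 +/+ array numbered 1 than to the PA1 -/- array numbered 1. The difference was 4.53-fold at number 1 and 1.88-fold at number 2. Group means were 3648 ± 961 and 1473 ± 1167 (SD, n = 2 each). With genotype as the only term the log2 difference was -1.54 (SE 0.645, 95% interval -3.23 to 0.14, limma adjusted p = 1). That SE includes the difference between numbers. With the number as a further term both probe sets of Klf4 passed the threshold, as given with the dependence on the processing. The second probe set, 1417395_at, gave 977 and 2463 against 212 and 963, with differences of -2.15 and -1.35, and here the PA1 -/- array numbered 2 was just below the PA1 +/+ array numbered 1. In both genotypes Klf4 was higher at number 2, the opposite of Medag. Klf4 differed by -0.64 without the PA1 -/- array numbered 1 and by -2.45 without the PA1 -/- array numbered 2.

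Klf5, a relative that acts on Pparg together with the C/EBP factors, differed more between numbers than between genotypes. Probe set 1451021_a_at read 1867 and 240 in the PA1 +/+ arrays and 742 and 197 in the PA1 -/- arrays. The PA1 -/- array numbered 1 stood above the PA1 +/+ array numbered 2, so the groups overlapped. The difference was -1.32 at number 1 and -0.27 at number 2, with a mean of -0.80 (SE 1.14, 95% interval -3.78 to 2.19, limma adjusted p = 1). Between numbers it was -2.91 in PA1 +/+ and -1.86 in PA1 -/- cells. A dimmer tested probe set read 103 and 50.9 against 73.9 and 54.4, with differences of -0.43 and 0.08, and the dimmest read 17.2 or less on every array. Without the PA1 +/+ array numbered 1 the mean difference was 0.66, and without the PA1 -/- array numbered 2 it was 0.13.

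**Figure D2:**
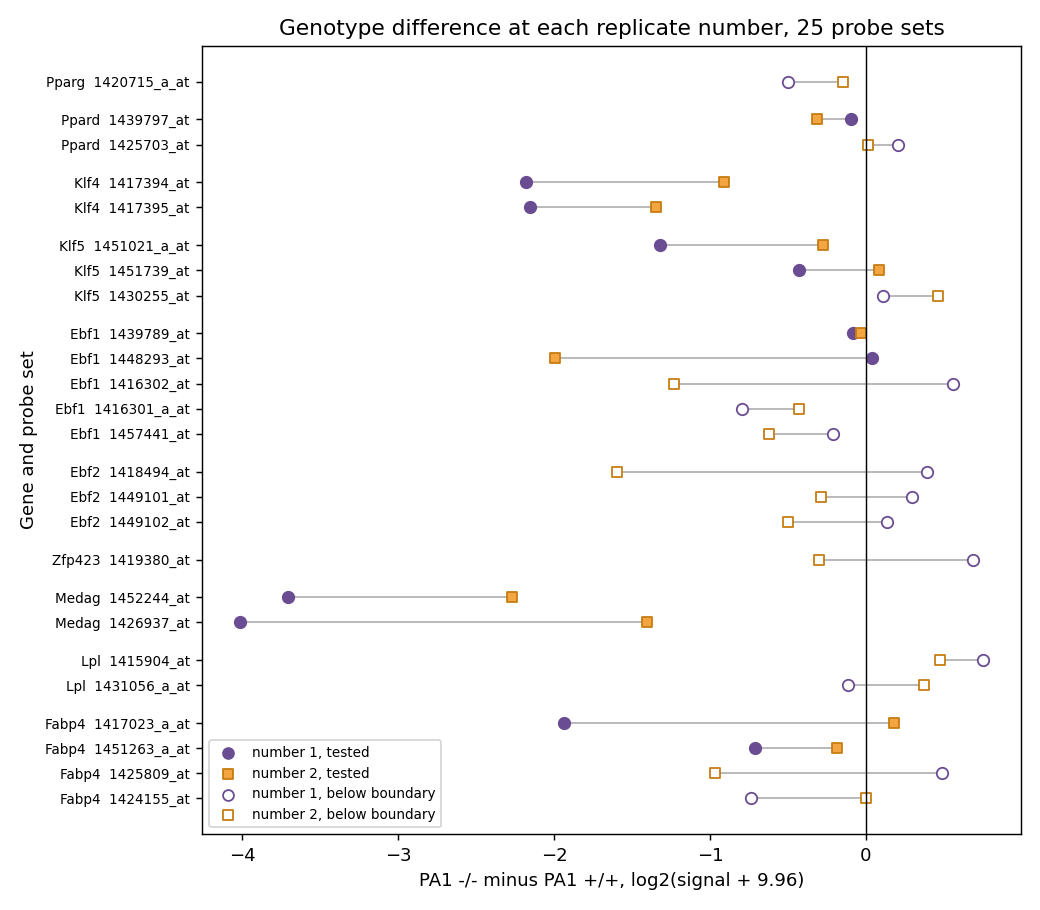
PA1 -/- minus PA1 +/+ (log2 of signal plus 9.96) for each of the 25 probe sets, circles for number 1 and squares for number 2, filled where the probe set was tested and open where it lay below the boundary. Both probe sets of Medag and both of Klf4 lie left of 0 at both numbers, and those of Ebf1, Ebf2 and Fabp4 spread to either side.

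The PPAR receptors did not stand apart by genotype. Ppard, which encodes the widely expressed PPAR delta, read 401 and 374 in PA1 +/+ and 375 and 299 in PA1 -/- arrays by probe set 1439797_at. The 4 values lay close together, and the PA1 -/- array numbered 1 lay next to with the PA1 +/+ array numbered 2. The log2 difference was -0.20 (SE 0.271, 95% interval -0.91 to 0.50, limma adjusted p = 1), with -0.10 and -0.31 at the numbers. Its other probe set read 5.71 or less, and a probe set shared with another gene was not used. Pparg, the central regulator of fat cell formation, read 146 and 27.5 in PA1 +/+ and 101 and 23.9 in PA1 -/- arrays by its only probe set. That probe set lay just below the boundary and was not tested. Its differences were -0.50 and -0.14 within the numbers, against -2.06 and -1.71 between them, so the number 1 arrays were the brighter ones in both genotypes. Without the PA1 +/+ array numbered 1 the Pparg difference was 0.71, and without the PA1 -/- array numbered 2 it was 0.53.

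Ebf1, Ebf2 and Zfp423, whose products mark and commit preadipocytes, were dim, at 119 or less on every array. Ebf1 had 5 probe sets with signals from 5.16 to 119. The brightest, 1439789_at, read 107 and 50.8 in PA1 +/+ and 101 and 49.5 in PA1 -/- arrays, and the genotypes were nearly level at each number (mean difference -0.06, SE 0.521, 95% interval -1.42 to 1.30, limma adjusted p = 1). Another tested probe set of almost the same mean brightness, 1448293_at, read 115 and 97.7 against 119 and 17.0, with differences of 0.04 and -1.996. The low value on 1 array, PA1 -/- number 2, carried that difference. Of the 5 probe sets, 3 were lower at both numbers. The brightest gave 0.42 without the PA1 +/+ array numbered 1 and 0.39 without the PA1 -/- array numbered 2. Ebf2 read 29.8 and 57.6 against 42.1 and 12.4, with differences of 0.39 and -1.60, and its other probe sets read 9.91 or less. Zfp423 read 4.03 and 3.87 against 12.6 and 1.28, so its only probe set gave no usable difference.

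The downstream markers Lpl and Fabp4 did not share a pattern. Lpl, the enzyme that releases fatty acids from circulating lipoproteins, read 44.2 and 36.8 in PA1 +/+ and 81.3 and 54.9 in PA1 -/- arrays. Both PA1 -/- arrays lay above both PA1 +/+ arrays (0.75 at number 1 and 0.47 at number 2), but the mean fell below the boundary and was not tested. It was the 1 gene of 10 without overlap on the higher side, against 15.7% of all genes, and Klf4 and Medag were the 2 on the lower side, against 12.7%. Its other probe set differed by -0.11 and 0.37.

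Fabp4, the fatty acid binding protein of fat cells, was low on a single array. Probe set 1417023_a_at read 297 and 407 in PA1 +/+ and 70.2 and 462 in PA1 -/- arrays. The PA1 -/- array numbered 1 stood below the other 3, and the PA1 -/- array numbered 2 was the brightest. The difference was -1.94 at number 1 and 0.18 at number 2, with a mean of -0.88 (SE 0.880, 95% interval -3.17 to 1.42, limma adjusted p = 1). The other tested probe set read 72.2 and 137 against 40.3 and 119, with -0.71 and -0.19. Without the PA1 -/- array numbered 1 the difference by the brightest probe set was 0.40. Whether the genotype difference of Fabp4 differs between numbers could not be tested with 1 array for each genotype and number.

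**Figure D3:**
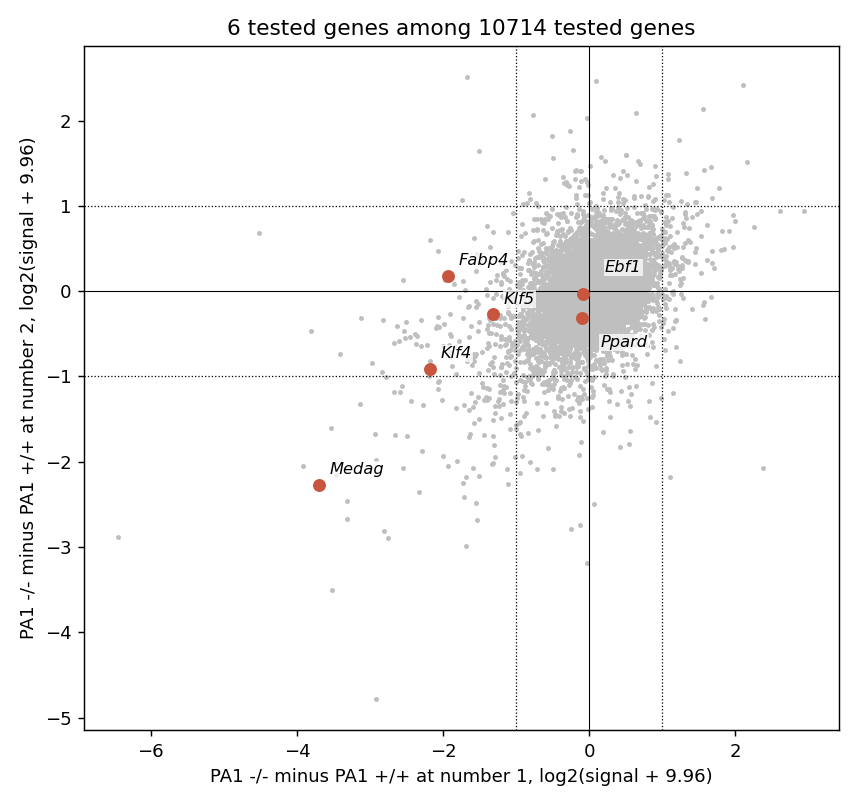
PA1 -/- minus PA1 +/+ at number 1 (horizontal) and at number 2 (vertical), both as log2 of signal plus 9.96, for the brightest probe set of 10714 tested genes (grey) and the 6 tested genes described (red), with dotted lines at 2-fold. Medag at -3.70 and -2.27 lies past both lower lines, and Klf4 at -2.18 and -0.91 stops just inside the line for number 2.

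Counts at 2-fold summarise the same values, and they too only describe genes chosen with earlier results of these data known. At number 1, 4 of the 10 genes (Klf4, Klf5, Medag and Fabp4) were at least 2-fold lower, against 4.51% of all genes, and at number 2 there were 2 (Ebf2 and Medag), against 4.49%. None of the 10 was at least 2-fold higher at number 1 or number 2, against 3.91% and 3.44%. These genes also differed by replicate number. For 6 of the 10 the mean difference between numbers was larger than that between genotypes, against 62% of all genes, a share like the background. Pparg, Klf5 and Medag, 3 of the 10, were at least 2-fold lower at number 2 than at number 1 in both genotypes, against 4.3% of all genes.

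**Figure D4:**
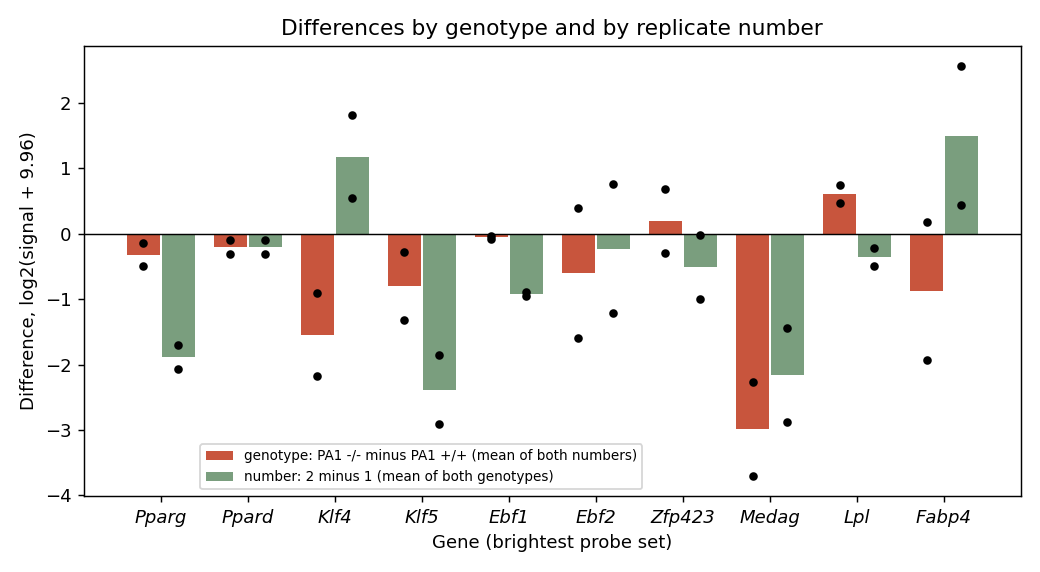
Mean genotype difference (red bars, PA1 -/- minus PA1 +/+) and mean difference between numbers (green bars, number 2 minus number 1) of each gene, as log2 of signal plus 9.96, with black points for the 2 differences behind each bar. The number bar exceeds the genotype bar for Pparg at -1.89 against -0.32 and for Klf5 at -2.38 against -0.80, while for Klf4 the genotype bar is longer, at -1.54 against 1.18.

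Genes that work beside these 10 were read from fixed lists, each by its brightest tested probe set, and limma called 0 of them on every list at an adjusted p under 0.05. Genes with an unadjusted p under 0.05 numbered 2 of 5 C/EBP factors, 0 of 11 PPAR and RXR genes, 1 of 10 other KLF genes, 1 of 7 EBF and ZFP423 partners, 2 of 18 other regulators, 0 of 15 lipid genes and 1 of 8 surface markers, against 1.95% of tested probe sets. Among tested genes at large, 29.3% were lower and 33.9% higher at both numbers, with a median difference of 0.02.

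Of the C/EBP factors, 4 of 5 tested genes were lower at both numbers. The early factors Cebpd (3580 and 5072 against 465 and 1278) and Cebpb (5946 and 6018 against 1087 and 2463) had PA1 -/- arrays below both PA1 +/+ arrays.

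Other Krüppel-like factor genes gave no common direction. Of 10 tested, 4 were lower and 5 higher at both numbers, with a median of 0.06. Klf2, whose product restrains adipocyte differentiation, read 906 and 1038 in PA1 +/+ and 405 and 533 in PA1 -/- arrays, a difference of -1.05 that was similar at both numbers (-1.14 and -0.95). Klf9 differed by -0.60. Klf6 was higher, at 1320 and 2047 against 2044 and 2670 (0.50), and Klf16 differed by 0.35.

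Receptors and coregulators that work with PPAR gamma leaned the other way by small amounts. Of 11 tested genes, 7 were higher at both numbers and 0 lower at both, with a median of 0.20. The acetyltransferase gene Crebbp read 1796 and 1613 in PA1 +/+ and 2290 and 2302 in PA1 -/- arrays (0.43). Prdm16, a brown fat regulator, differed by 0.49 on average but by only 0.03 at number 2, and it read 43.9 and 266 against 93.8 and 272.

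Among paralogs and partners of the EBF factors and ZFP423, the signalling ligand gene Bmp4 stood out. It read 2814 and 1303 in PA1 +/+ and 460 and 569 in PA1 -/- arrays, with differences of -2.59 and -1.18. Of 7 tested genes 2 were lower and 1 higher at both numbers, and 4 went opposite ways (median -0.06). The paralog gene Ebf3 was among the latter, at 1060 and 241 against 860 and 347 (-0.30 and 0.51), as was Zfp521, a relative of Zfp423, at 600 and 313 against 380 and 428 (-0.65 and 0.44); both are named after their values were seen. The receptor gene Bmpr1a differed by -0.22 and Smad1, which carries BMP signals to the nucleus, by 0.08.

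Of 18 other regulators of fat cell formation, 9 were lower and 3 higher at both numbers, with a median of -0.15. Egr2, which encodes the early factor KROX20, read 186 and 139 in PA1 +/+ and 61.9 and 36.2 in PA1 -/- arrays (-1.45 and -1.69). Dlk1, which encodes the preadipocyte protein PREF-1 that holds differentiation back, read 6338 and 9536 against 2830 and 4421 (-1.16 and -1.11). An activator and an inhibitor of the process were thus both lower. Stat5b was higher by 0.40, at 0.35 and 0.45 within the numbers. Gata2 had the same mean difference, but 0.77 at number 1 and 0.03 at number 2.

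Lipid genes and PPAR targets of the adipocyte were mixed, with 6 of 15 tested genes lower and 3 higher at both numbers (median -0.10). The lipid droplet coat gene Plin2 read 4874 and 5044 in PA1 +/+ and 6971 and 6050 in PA1 -/- arrays (0.39). Mgll, which encodes monoglyceride lipase, read 156 and 141 against 52.7 and 101 (-0.92), Lpin1 differed by -0.46 and the adiponectin receptor gene Adipor1 by 0.35.

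Surface markers of adipocyte progenitors were led by Pdgfra, at 1515 and 357 in PA1 +/+ against 134 and 210 in PA1 -/- arrays, with -3.41 at number 1 and -0.74 at number 2. Pdgfrb differed by -0.77, and Itgb1 and Cd44 by 0.32 and 0.28. Of 8 tested genes 4 were lower and 3 higher at both numbers. Of the 10 fibroblast markers, 6 were lower at both numbers, 1 was higher at both and 3 went opposite ways, against 29.3% lower and 33.9% higher among tested genes. The lowest 2 were Prrx1 (2850 and 295 against 1160 and 69.1) and Dcn (138 and 103 against 41.4 and 37.9), and Twist1 was higher, at 755 and 763 against 802 and 916. The part of these markers in the values of Medag and Klf4 was not tested.

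**Figure D5:**
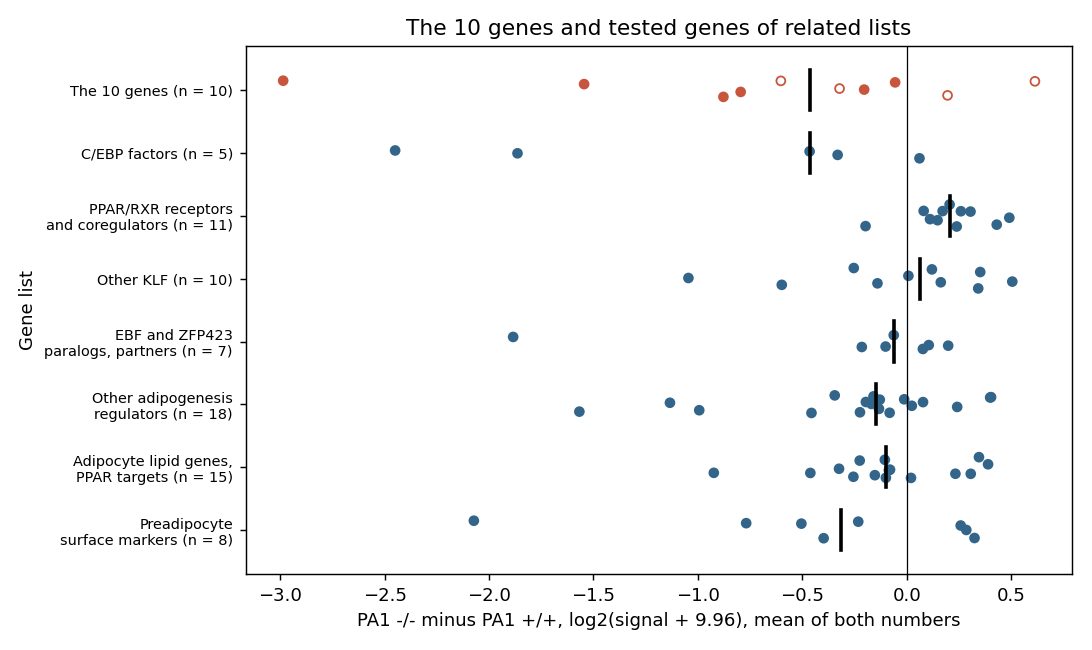
PA1 -/- minus PA1 +/+ (log2 of signal plus 9.96, mean of both numbers) for the 10 genes (red, open where below the boundary of tested probe sets) and for tested genes of 7 related lists (blue), with a black bar at the median of each row. The 10 genes have a median of -0.46 and the receptors and coregulators 0.20, and Cebpd, Cebpb, Bmp4 and Pdgfra form the left edge of their rows.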

How the data were processed

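Biotin-labelled total RNA of 4 samples went onto 4 Affymetrix arrays. The authors deposited linear intensity values per probe set, which the submitters' processing notes credit to MAS5, with version, settings and scaling target not given in the sources used here. Detection calls were not used. Medians near equality on all arrays mean that each difference is relative to its array.

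After 64 controls were left out, 45037 probe sets remained, of which 34945 had 1 gene symbol in the platform annotation, 932 several and 9160 none. RefSeq identifiers matched for 34741, and 0 symbols changed. Groups and numbers came from the labels. Signals were taken as log2(signal + 9.96), the 20th percentile of all values. The upper 50% of probe sets by mean were tested with limma 3.58.1 in R 4.3.3 (eBayes with an intensity trend, genotype as the only term, 2 residual degrees of freedom, 2-sided), with Benjamini-Hochberg adjustment over all 22519. On simulated data the fit was checked for the mean size of a known decrease, and the rate of its calls there is not reported. A gene was read through its brightest probe set.

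The 10 genes and all lists were chosen with earlier results of these data known. Of each list, up to 2 genes with the lowest and 2 with the highest difference among those of 1 sign at both numbers were named, and genes most like a member that was at least 2-fold different at both numbers. List genes without a probe set of their own are not analysed here. Alternatives were 3 normalizations, pseudocounts of 1 and 64.9, no filter and the upper 30%, other variance models, the mean of probe sets, the replicate number as a term and leaving out each array. Figures used matplotlib 3.10.9 in Python 3.11.15.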

Additional observations from a re-analysis of the deposited data

How the results depend on the processing

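With the replicate number as a replicate block, limma called 447 of 22519 probe sets (1.98%; 329 lower, 118 higher) and 2 of the 10 genes, Klf4 (adjusted p = 0.00863) and Medag (adjusted p = 0.000518), where the fit with genotype alone called 0 and 0. With the block, limma also called the other probe sets of Klf4 (adjusted p = 0.00217) and Medag (adjusted p = 0.0116). Deviations from the group means of same-numbered arrays correlated at 0.805, but there were only 2 pairs and what the number stands for is not stated. Every other setting that kept all 4 arrays left the sign of each of the 10 differences as reported and 0 probe sets and 0 of the 10 genes past the threshold. Genes lower at both numbers were 5 after median centring and 7 with the mean of probe sets, against 6 as reported. The median of the 10 differences was -0.41 after quantile normalization, -0.41 after median centring, -0.44 after cyclic loess, -0.59 with a pseudocount of 1, -0.22 with a pseudocount at the median signal and -0.50 with the mean of probe sets. The cause was not tested. Leaving out each array gave medians from -0.59 to 0.070 and 0 calls, and counts at both numbers cannot be made without an array. Such fits hold unequal numbers in the 2 genotypes. Their values ran from -2.25 to 0.66 for Klf5, from -0.53 to 0.42 for Ebf1 and from -2.16 to 0.40 for Fabp4, while Klf4 (-2.45 to -0.64) and Medag (-4.42 to -1.55) stayed below 0. Dim probe sets, those of Pparg, Ebf2, Zfp423 and Lpl among them, limit what these arrays show.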
